A study of Drosophila melanogaster with 6 samples.

Results

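The 6 genes described here carry or handle glutamate in neurons that release it: VGlut, Got1, Got2, Gdh, Gs1 and Eaat2. They were taken by symbol from the 17117 genes of the authors' deposited table, and all 6 had reads. The neurons were output neurons of 3 types (γ5β′2a, β′2mp, β′2mp_bilateral) of the Drosophila melanogaster mushroom body, sorted by fluorescence from brains of mated females 3 to 4 days after eclosion, with dissection at ZT12 to ZT13.5 (hours after lights on). All flies carried UAS-CD8::GFP, a membrane-bound green fluorescent protein, and the split driver R14C08-p65.AD with R15B01-GAL4.DBD, which limits expression to cells where both of its parts are active. One genotype also carried UAS-bantam_sponge at both driver positions, a transcript made to bind and hold the microRNA bantam, and the control carried UAS-scramble_sponge at the same positions. There were 3 libraries of each genotype, which the labels number as biological replicates. The sponge acts in the same cells that carry the fluorescent label.

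Glutamate is loaded into synaptic vesicles by the vesicular transporter that VGlut encodes, and the presence of this transporter is what makes a neuron glutamatergic. The amino acid is made and used in the mitochondria and cytosol around the tricarboxylic acid cycle. Aspartate aminotransferases (Got1, Got2) pass its amino group to oxaloacetate, and glutamate dehydrogenase (Gdh) turns it into 2-oxoglutarate. Glutamine synthetases turn it into glutamine, and plasma-membrane transporters of the Eaat family clear acidic amino acids from outside the cell.

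The deposited table gives each gene a mean log2 CPM (counts scaled to library size, averaged over both genotypes), a log2 fold change (above 0 where bantam sponge is higher) and the p-value of an edgeR exact test before adjustment, with no value per library. The mean CPM of each genotype given below was therefore inferred from the mean and the fold. The 95% intervals of folds were computed from the dispersion that turns the deposited fold into the deposited p-value, and they stand in for a spread over libraries. Effective library sizes recovered from the lowest values of the table ran from 8.18 to 119.1 megareads in bantam sponge and from 5.31 to 98.0 megareads in scramble sponge. Intervals do not show whether a single library decides a value. All 10 pan-neuronal markers had reads, at 7.27 to 10.35 log2 CPM. In sorted bulk cells, fewer cells of a type and less RNA per cell cannot be told apart.

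VGlut was abundant and stood at nearly the same level in both genotypes. VGlut (FBgn0031424; 2L, 2400295 to 2410662, plus strand, dm6) had an inferred 1550 CPM in bantam sponge and 1775 CPM in scramble sponge. In the authors' deposited table its mean log2 CPM was 10.70, above 99.5% of the 9286 genes with reads, and its log2 fold change was −0.20 (95% interval −3.07 to 2.68, unadjusted p = 0.887). The interval runs from 0.119 to 6.41 times the control level. Its width largely restates the authors' variance model, in which dispersions are shared between genes of like level. Under that model the test places VGlut no closer than this range. Of the 200 genes with an interval nearest to it in mean log2 CPM (9.54 to 11.85), 97 had a larger absolute fold. Here and below, counts of neighbours in level take only genes with an interval. The genes nearest to VGlut over both mean log2 CPM and log2 fold change, the only values in the table that describe a pattern, were Hsp26 (a small heat shock protein), Ggamma30A (a G protein subunit), miple1 and EF2 (a translation elongation factor), at distances of 0.0558, 0.0817, 0.088 and 0.112 log2 units. Such distances are far below the interval half-width of 2.88 for the fold of VGlut, so which genes lie nearest is not resolved.

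Gdh, the mitochondrial glutamate dehydrogenase gene (FBgn0001098; 3R, 23935958 to 23943101, minus strand), was read at an inferred 797 CPM in bantam sponge and 726 CPM in scramble sponge. Its mean log2 CPM in the authors' deposited table was 9.57 and its log2 fold change 0.14 (95% interval −2.82 to 3.09, unadjusted p = 0.923). This was the smallest absolute fold of the 6 genes, and 154 of the 200 genes nearest in level had a larger one.

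Gs1 encodes the mitochondrial glutamine synthetase of the fly and lies in a single exon (FBgn0001142; 2L, 132077 to 134472, plus strand). It had an inferred 621 CPM in bantam sponge and 469 CPM in scramble sponge. In the authors' deposited table its mean log2 CPM was 9.09 and its log2 fold change 0.40 (95% interval −2.71 to 3.52, unadjusted p = 0.784). Of its 200 neighbours in level, 85 had a larger absolute fold.

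Eaat2 encodes a plasma-membrane transporter of the excitatory amino acid family that carries aspartate and taurine (FBgn0026438; 2L, 737212 to 744395, minus strand). It had an inferred 553 CPM in bantam sponge and 439 CPM in scramble sponge. Its mean log2 CPM in the authors' deposited table was 8.96 and its log2 fold change 0.33 (95% interval −2.84 to 3.51, unadjusted p = 0.825). VGlut, Gdh, Gs1 and Eaat2 thus all had folds under 0.5 in size on the log2 scale, each small beside its own interval.

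The aminotransferase genes were the exception in size, and they pointed in opposite directions. Got1 (FBgn0001124; 2R, 16138352 to 16141928, plus strand) had an inferred 433 CPM in bantam sponge against 119 CPM in scramble sponge. In the authors' deposited table its mean log2 CPM was 8.11 and its log2 fold change 1.87 (95% interval −1.70 to 5.44, unadjusted p = 0.274). Among the 200 genes nearest in level, whose central 95% of folds ran from −1.81 to 1.56, 6 had a larger absolute fold than Got1.

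Got2 (FBgn0001125; 2L, 1984512 to 1987758, minus strand) had an inferred 18.3 CPM in bantam sponge against 157 CPM in scramble sponge. It was the least abundant of the 6, at a mean log2 CPM of 6.45, and its log2 fold change was −3.10 (95% interval −9.28 to 3.08, unadjusted p = 0.267) in the authors' deposited table. Of its 200 neighbours in level, whose central 95% of folds ran from −4.11 to 3.23, 16 had a larger absolute fold. Neither aminotransferase gene passed the test, and both intervals reach well past 0.

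Per kilobase of exon, Got1 stood at 23.2 times the level of Got2 in bantam sponge and at 0.739 times in scramble sponge, a difference of 4.97 between their log2 fold changes. Both genes were read in the same libraries, whose single values are not analysed here, so the difference between the genes was not tested.

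**Figure D1:**
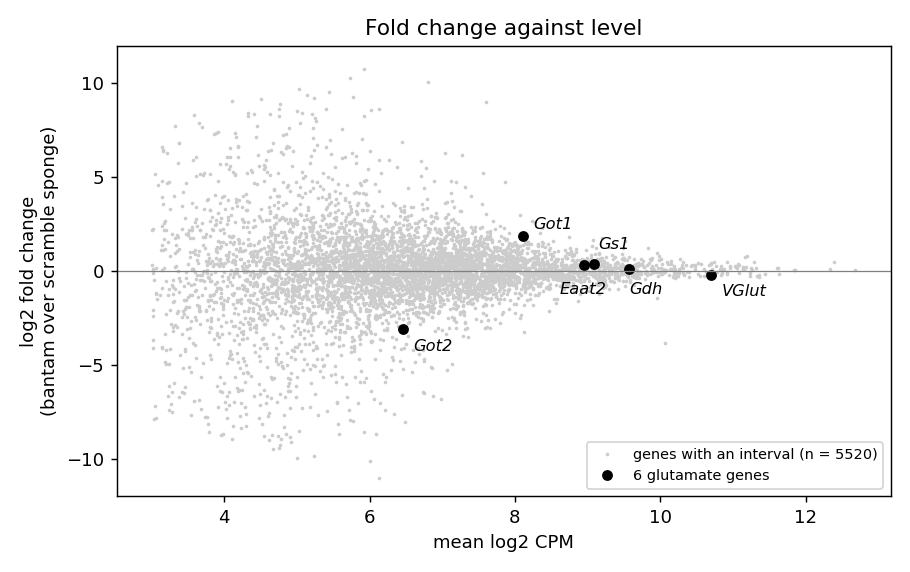
Log2 fold change (bantam over scramble sponge) against mean log2 CPM for the 5520 genes with an interval (grey) and the 6 glutamate genes (black). VGlut, Gdh, Gs1 and Eaat2 lie within 0.5 of 0, while Got1 (1.87) and Got2 (−3.10) lie towards the edges of the genes at their level.

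None of the 6 genes differed between genotypes at an adjusted p under 0.05, when the p-values of the edgeR exact test were adjusted by Benjamini-Hochberg over the 17117 rows (adjusted p = 1 for each), and 0 of 6 had an unadjusted p under 0.05. At that unadjusted threshold the table calls 4.18% of all genes with reads and 0.734% of the 2726 genes whose mean log2 CPM lies within the range of the 6, and the count of the 6 genes does not stand apart from that background; after adjustment the table calls 0% of its rows. Of the 6 folds 4 were above 0 and 2 below, with a median of 0.23. Over the 2726 genes within their range of level, 51.0% were above 0, with a median of 0.02. Over all genes with reads, 46.5% were above 0, with a median of −0.13. The genes had been chosen with earlier results of these data known, so the count describes them and supports nothing further.

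The fold that each gene would have needed to reach an unadjusted p of 0.05 depended on its level. It was 7.34-fold for VGlut, 7.76-fold for Gdh, 8.66-fold for Gs1 and 9.04-fold for Eaat2. For Got1 it was 11.9-fold and for Got2 72.7-fold. The dispersions behind these sizes were solved from the deposited folds and p-values, and they do not separate biological from technical variation. In the test's model they correspond to a coefficient of variation between libraries of 1.11 for VGlut, 1.13 for Gdh and 1.18 for Gs1. The coefficient was 1.20 for Eaat2, 1.31 for Got1 and 1.92 for Got2. The same ordering held across the table, where the median coefficient was 2.81 for genes at 3 to 4 log2 CPM and 1.10 at 10 to 11. An observed fold below the size given for its gene would not have reached an unadjusted p of 0.05. These sizes are not limits on the true changes that could be found.

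Per kilobase of exon, the scale on which genes can be compared, the order of levels was Gdh, VGlut, Gs1, Got1, Eaat2 and Got2. Gdh stood at 8.34 log2 CPM per kb (95% interval of the mean 7.28 to 10.04) and VGlut at 8.18 (7.14 to 9.83). Gs1 followed at 7.83 (6.73 to 9.62) and Got1 at 7.28 (6.09 to 9.34). Eaat2 was at 6.96 (5.84 to 8.78) and Got2 at 5.66 (4.07 to 9.21) log2 CPM per kb. Every pair of neighbours in this order had overlapping intervals, so the order describes the means only. Gdh was above 96.7% and VGlut above 96.4% of the 9241 genes with reads and a length, while Got2 was above 75.1%. VGlut has 5.72 kb of exon but only 1.90 kb of coding sequence. Per kilobase of coding sequence it came first, at 9.78 log2 CPM per kb, ahead of Gs1 at 8.83 and Gdh at 8.82.

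**Figure D2:**
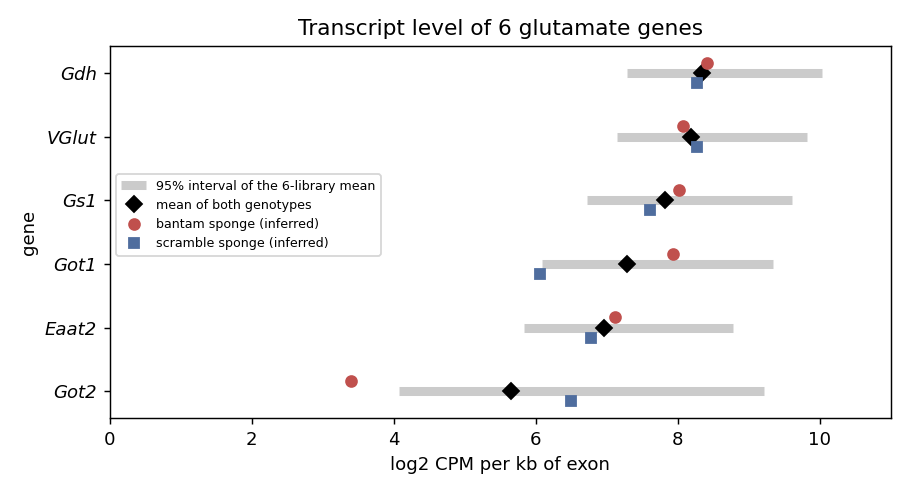
Transcript level of the 6 genes in log2 CPM per kb of exon: diamonds give the mean of both genotypes, grey bars its 95% interval, circles the inferred bantam sponge mean and squares the inferred scramble sponge mean. Only for Got1 and Got2 are circle and square more than 1 log2 unit apart.

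Exonic overlap with other genes was slight for the 6 genes. These libraries carry no strand information, and reads from bases shared with a gene on the opposite strand cannot be assigned. VGlut shared 39 bases with CG18641, Gdh 7 bases with CG5854 and Got2 3 bases with CG7289. Got1, Gs1 and Eaat2 shared none.

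VGlut stood above the marker genes of other transmitter systems per kilobase of exon. Its mean level was 3.23 times that of ChAT (acetylcholine synthesis) and 10.9 times that of Gad1 (GABA synthesis). It was 7.30 times that of VGAT, the vesicular GABA transporter gene, and 70.3 times that of VAChT, the vesicular acetylcholine transporter gene. Of the monoamine genes, VGlut stood at 2.27 times the level of Ddc, the aromatic amino acid decarboxylase gene, and at 3.56 times that of SerT, the serotonin transporter gene. The interval of the mean level of VGlut ran from 7.14 to 9.83 log2 CPM per kb. Those of Ddc (5.87 to 8.89), ChAT (5.25 to 8.68) and Gad1 (3.23 to 7.89) overlapped it. So did those of VGAT (3.81 to 8.46) and SerT (5.17 to 8.36). The intervals of ple, a listed monoamine gene (1.59 to 9.84), and of the choline transporter gene CG7708 (0.13 to 7.21) overlapped it as well. That of VAChT (0.37 to 6.04) lay below it. ChAT and VAChT share 606 exonic bases, which reads cannot divide between them. None of the 14 acetylcholine, GABA and monoamine genes listed had an unadjusted p under 0.05, against 4.18% of all genes with reads. Of the monoamine genes, Trh had no read and could not have been called.

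**Figure D3:**
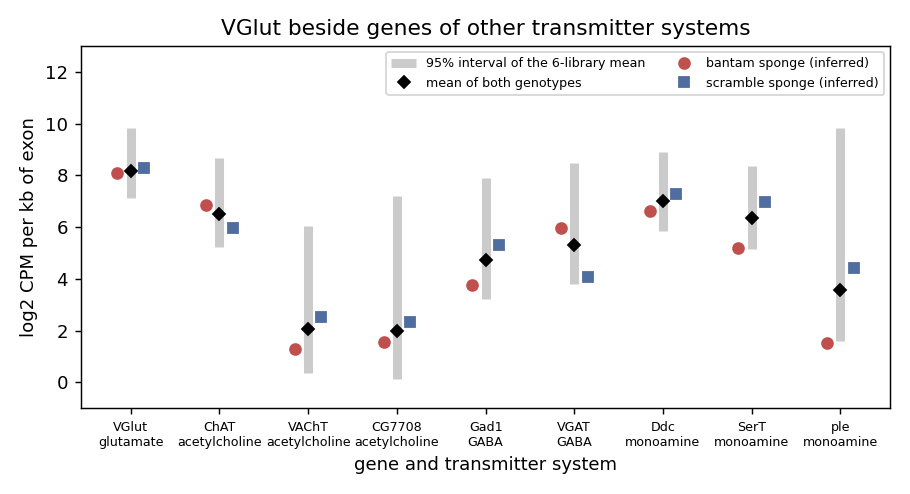
Level of VGlut and of 8 genes of other transmitter systems in log2 CPM per kb of exon, with the mean of both genotypes (diamonds), its 95% interval (grey bars) and the inferred genotype means (circles, squares); CG7708 is the choline transporter gene ChT. The mean of VGlut (8.18) is above all 8 others, and its interval overlaps those of all but VAChT.

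Among the other genes of glutamate metabolism none passed the test. Of 27 listed, 24 were found under distinct symbols and 18 had reads. Of these 18 genes 7 had folds above 0 and 11 below, with a median of −0.12, and 0 had an unadjusted p under 0.05 (4.18% of all genes with reads did). None of them had an adjusted p under 0.05 by the exact test.

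The gene aralar1, for the mitochondrial aspartate-glutamate carrier, had an inferred 27.5 CPM in bantam sponge and 124 CPM in scramble sponge. In the authors' deposited table it had a fold of −2.17 (95% interval −8.64 to 4.30, unadjusted p = 0.439). The malate dehydrogenase genes, which work with Got1, Got2 and aralar1 in the malate-aspartate shuttle, had smaller folds: Mdh1 had a fold of −0.18 and Mdh2 of −0.19 in the authors' deposited table, with mean levels of 8.93 and 10.18 log2 CPM. The mitochondrial glutamate carrier gene GC1 had a fold of 0.01 at 7.56 log2 CPM in the authors' deposited table, and its paralogue GC2 had no read. All 1086 exonic bases of GC2, and 656 of GC1 (39.6%), are shared with Tango9 on the opposite strand. Reads from shared bases cannot be assigned, so whether GC2 was expressed cannot be told from its count.

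Genes of the proline route into glutamate were read at levels near that of VGlut. The proline dehydrogenase gene slgA had the highest mean log2 CPM of the pathway, 10.84, and a fold of −0.12 (95% interval −2.92 to 2.68) in the authors' deposited table. Per kilobase of exon slgA stood at 8.74 log2 CPM against 8.18 for VGlut, or 1.47 times its level. Per kilobase of coding sequence the ratio was 1.02. The level intervals per kilobase of exon overlapped (7.71 to 10.33 for slgA, 7.14 to 9.83 for VGlut). P5CDh1, whose enzyme completes the conversion to glutamate, was read at 9.87 log2 CPM, with a fold of 0.59 (−2.29 to 3.47) in the authors' deposited table. P5cr, for the step back to proline, was at 7.12 log2 CPM with a fold of −0.76 (−5.82 to 4.30) in the authors' deposited table. The rows for P5CDh2, P5cr-2 and Oat had no read in any library. Neither did those for gb and CG4434 (bb8), pathway genes listed outside the proline route. Genes on the opposite strand share 91.2% of the exonic bases of P5CDh2, 87.1% of P5cr-2 and 32.8% of gb. Oat and CG4434 share none. Reads from shared bases cannot be assigned, so the missing reads do not show that P5CDh2 or P5cr-2 was silent. For gb this limit holds for the shared part only, and its remaining exonic bases had no read either. The 2-oxoglutarate dehydrogenase gene Nc73EF, which draws on the product of Gdh, had a fold of −0.04 at 8.32 log2 CPM in the authors' deposited table.

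In the GABA branch from glutamate, genes of breakdown had higher mean levels than that of synthesis. Gad1, which makes GABA from glutamate, was read at 6.62 log2 CPM, with a fold of −1.55 (95% interval −7.04 to 3.93) in the authors' deposited table. Gabat, the GABA transaminase gene that returns the amino group to glutamate, was at 9.81 with a fold of −0.12 (−3.02 to 2.78) in the authors' deposited table. Per kilobase of exon Gabat stood at 8.59 log2 CPM (95% interval of the mean 7.54 to 10.25) and Gad1 at 4.73 (3.23 to 7.89). Ssadh, for the next step, was at 8.09 log2 CPM with a fold of 1.03 (−2.50 to 4.56) in the authors' deposited table. Per kilobase of exon it stood at 7.18 log2 CPM (5.99 to 9.21). The level intervals of Gabat and Ssadh both overlapped that of Gad1, so the order describes the means only.

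For glutathione synthesis, which consumes glutamate, Gclc (the catalytic subunit of glutamate-cysteine ligase) had the smallest p of the pathway. It had an inferred 0.113 CPM in bantam sponge and 37.3 CPM in scramble sponge, a log2 fold change of −8.37 (95% interval −17.76 to 1.02, unadjusted p = 0.0710) in the authors' deposited table. So little in bantam sponge amounts to few reads. Gclm, the modifier subunit gene, had a fold of 1.30 (−4.23 to 6.84) in the authors' deposited table. The glutamyl-prolyl-tRNA synthetase gene GluProRS had −0.59 (−8.43 to 7.24) there, and AsnS, for asparagine synthesis, was at −2.77 log2 CPM, too scarce for an interval.

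Glial partners of these enzymes were also read in the sorted cells. Gs2, the cytosolic glutamine synthetase gene best known from glia, had an inferred 1271 CPM in bantam sponge and 541 CPM in scramble sponge, and its log2 fold change was 1.23 (95% interval −1.70 to 4.16, unadjusted p = 0.384) in the authors' deposited table. Per kilobase of exon Gs2 stood at 1.79 times the level of Gs1, at 2.20 times in bantam sponge and 1.24 times in scramble sponge. Eaat1, the glutamate transporter gene of astrocyte-like glia, had a fold of 0.48 (−4.47 to 5.42) and a mean log2 CPM of 7.07 in the authors' deposited table. Eaat2 stood at 2.89 times the level of Eaat1 per kilobase of exon. The level intervals of Gs2 (7.61 to 10.34) and Gs1 (6.73 to 9.62) overlapped. So did those of Eaat2 (5.84 to 8.78) and Eaat1 (3.99 to 8.27), so both ratios describe the means only. Gat, the GABA transporter gene, had a fold of 2.57 (−4.27 to 9.41) in the authors' deposited table.

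Markers of glia had folds on both sides of 0. Of 13 glial genes 12 had reads, 8 with folds above 0 and 4 below, and their summed inferred level was 2313 CPM in bantam sponge and 1094 CPM in scramble sponge, of which Gs2 was the largest part. The most abundant after Gs2 was nrv2, a sodium pump subunit gene, at 8.31 log2 CPM where the authors' deposited table gives a fold of 1.10 (95% interval −2.33 to 4.52). The glial fate gene repo had an inferred 0.983 CPM in bantam sponge and 102 CPM in scramble sponge, with p = 0.0525 (exact test; authors' deposited table). Mdr65, of the blood-brain barrier, had no read. Below an unadjusted p of 0.05 were 2 of the 12, e (ebony) and zyd, against 4.18% of all genes with reads. For e no read was found in scramble sponge, and the level inferred for bantam sponge was 78.2 CPM, with p = 0.0367 by the exact test of the authors' deposited table. For zyd no read was found in bantam sponge, and the level inferred for scramble sponge was 24.5 CPM (p = 0.0216 by the same exact test). The part of glial RNA in the levels of Gs1, Eaat2 and the other enzymes was not tested.

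**Figure D4:**
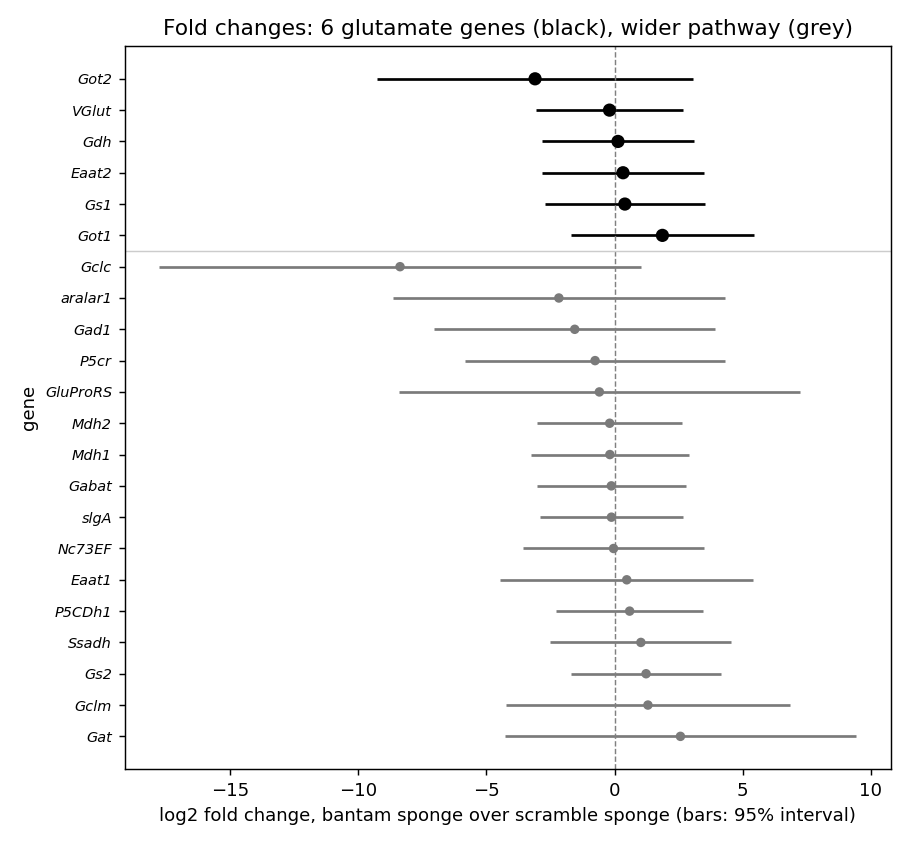
Log2 fold change (bantam over scramble sponge) with its 95% interval for the 6 glutamate genes (black) and for 16 other genes of the pathway that have an interval (grey). Every interval contains 0, and the widest belongs to Gclc.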

How the data were processed

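Messenger RNA was measured in 3 libraries per genotype. Per the labels and series design, poly(A) RNA was amplified over 25 PCR cycles (modified SMART-seq2, Nextera XT), and 2 replicates were sequenced on a NextSeq (paired 75 bases) and 1 on a HiSeq (paired 150 bases). The labels do not tie replicates to instruments. The submitters' processing notes name dm6 as the build and STAR, Picard, HTSeq and edgeR as tools, with no version.

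The file is the authors' deposited table of 1 comparison. Its log2 fold changes and mean log2 CPM were computed by the authors with edgeR, per the file headers and name. Its p-values, per the file headers and name, come from the authors' exact test and are not adjusted. Benjamini-Hochberg adjustment over all 17117 rows was added here (two-sided, threshold 0.05; Python 3.11.15, scipy 1.17.1, pandas 2.3.3).

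Library sizes were solved from the 6 mean log2 CPM values of genes with 1 read and the value of genes with none, assuming a prior count of 2; all 141 other genes below the lowest value possible for 4 reads fell within 1e-05 of a predicted value for 2 or 3 reads. Sizes include any normalization factor, and reads amplified by PCR are not independent molecules. The dispersion was recovered for the 5520 genes at or above 3 in mean log2 CPM and 0.02 in absolute log2 fold whose absolute fold was less than 5 above that mean. Intervals invert the beta form of the exact test. A Wald interval had been planned; on simulated data it held the true fold too seldom, so the inversion was chosen in its place. The test's dispersions are shared between genes of like level, so these intervals largely restate the authors' variance model. Intervals of a mean level treat the 6 libraries as gamma distributed with that dispersion and no genotype difference. Where the absolute fold lay more than 9.3 above the mean, a genotype was taken to have no read; 3 reads over its libraries would be 0.0175 CPM in bantam sponge and 0.0204 CPM in scramble sponge.

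Exon lengths (union over transcripts) and coordinates come from the Ensembl release 115 annotation on dm6 coordinates, in which 16991 rows found a gene, 3727 through an older symbol. Named genes are the 6 members, the pathway list, the most abundant or lowest-p markers and the 4 genes nearest to VGlut. Members and lists were chosen with earlier results of these data known. Of the pathway list, Alat and Psat found no row under those symbols and GluRS is an older name of GluProRS. A further gene of the list is not reported here. A search of transcripts for bantam seed matches was planned and not run, because no sequence was used here.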

Additional observations from a re-analysis of the deposited data

How the results depend on the processing

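No paired analysis was possible because the deposited table holds no value per library; leaving out replicates could not be run for the same reason. None of the 6 genes passed an adjusted p of 0.05 under Benjamini-Hochberg over genes with reads, over genes at a mean log2 CPM of 3 or more, or under Holm, where every adjusted p was 1. All intervals contained 0 as Wald intervals (half-widths 2.56 to 4.42), from the normal quantile of p (2.69 to 5.47) and from the median dispersion of neighbours (2.87 to 6.13). The count of the pathway list under an unadjusted p of 0.05 stayed at 0 among genes at a mean log2 CPM of 3 or more. Levels per kb of coding sequence in place of exon were 9.78 for VGlut, 8.83 for Gs1 and 8.16 for Eaat2 (log2 CPM), which moved VGlut from the second place to the first. The percentile of a gene's dispersion among its neighbours depended on how many neighbours were taken and is not used in the report. Among 100 neighbours it was 87 for VGlut, 72 for Got1, 65 for Gs1 and 74 for Eaat2. Among 500 it was 21.8 for VGlut, 55.4 for Got1, 26.4 for Gdh, 42.4 for Gs1 and 46.4 for Eaat2. The search for bantam seed matches was not run. Genes below 3 in mean log2 CPM, such as AsnS, were read too thinly for an interval.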

Other observations

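The genes read more strongly than VGlut per kilobase of exon numbered 335. The first of all was 7B2, which encodes a helper protein of neuropeptide-processing enzymes, at 11.24 log2 CPM per kb, followed by the tubulin gene alphaTub84B at 10.83 and the small heat shock genes Hsp23 at 10.69 and Hsp26 at 10.64. Of the glutamate pathway, Mdh2 came highest on this scale, at 9.76 log2 CPM per kb.

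Folds of abundant genes lay much closer to 0 than their intervals are wide. For the 84 genes with an interval at 10 to 11 log2 CPM the median absolute log2 fold was 0.17 and the median half-width of the interval 2.84. VGlut, at 0.20 in size with a half-width of 2.88, shared this property.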
